A study of Mus musculus with 5 samples.

Results

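Notch receptors, their ligands and the Hes genes downstream of them were examined in e12.5 mouse pituitary, in 2 knockout and 3 control libraries. The knockout embryos carried floxed Itgb1 alleles (Itgb1 f/f) together with Pitx1-cre. The controls were littermates with Itgb1 f/f and no Pitx1-cre, and both groups had the mixed strain background B6;129. Itgb1 encodes integrin beta 1, a subunit shared by many receptors for extracellular matrix, and Pitx1-cre acts in oral ectoderm and the pituitary that forms from it, so that neighbouring tissue keeps the gene. The 10 genes were taken by name from the 20097 gene symbols of the table of all genes: the receptors Notch1, Notch2 and Notch3, the ligands Dll1, Dll3, Jag1 and Jag2, and Hes1, Hes5 and Hes6. Each had a single region in the table, none of these regions overlapped another listed gene, and all 10 passed the filter on low values.

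Notch receptors are membrane proteins that are cut when a Delta or Jagged ligand on a neighbouring cell binds them. The freed intracellular part joins the DNA-binding protein Rbpj and switches on target genes, among them Hes1 and Hes5, which repress genes of differentiation. In the embryonic pituitary the pathway is known for keeping progenitors from differentiating early. Hes6 belongs to the same family but is known to oppose Hes1.

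The promoter of Hes5 is shown because it holds the Rbpj recognition letters in a pair, and a promoter of Hes6 is shown beside it as a family member without them. RefSeq sequences of build GRCm38.p6 matched 9 of the 10 genes, in 11 windows of 250 bases upstream of an annotated start, and Hes1 is named only. The motif searched was GTGGGAA, on both strands (reverse complement TTCCCAC). The 2 lines give Hes5 at chr4:154960673-154960922 on the plus strand and Hes6 at chr1:91413223-91413472 on the minus strand, with the motif in capitals:
Hes5: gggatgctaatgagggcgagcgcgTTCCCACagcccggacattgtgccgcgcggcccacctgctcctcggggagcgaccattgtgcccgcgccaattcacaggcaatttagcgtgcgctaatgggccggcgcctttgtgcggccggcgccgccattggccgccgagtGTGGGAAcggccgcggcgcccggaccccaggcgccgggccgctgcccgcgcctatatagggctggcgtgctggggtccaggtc
Hes6: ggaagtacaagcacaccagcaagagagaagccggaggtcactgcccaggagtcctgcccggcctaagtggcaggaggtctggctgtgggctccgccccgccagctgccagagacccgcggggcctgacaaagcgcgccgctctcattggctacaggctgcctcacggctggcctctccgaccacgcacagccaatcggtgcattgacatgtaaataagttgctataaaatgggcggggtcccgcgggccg
The Hes5 window held 2 copies, whose upstream ends lay 226 and 83 bases before the annotated start, in opposite orientations. Of 32851 mouse promoter windows of the same length, 5.42% held at least 1 copy and 0.161% held 2 or more. None of the other 10 windows, including both of Hes6, held the motif. A match describes letters and is not evidence of binding, and the absence of a match concerns this window only.

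Levels are given as deposited, in tags per 10000000 total tags. Recovered reads over listed genes numbered 4480809 to 5507288 in the knockout libraries and 5445240 to 6143263 in the controls. Library 16 stood apart. Olfactory and vomeronasal receptor genes, which few tissues use, were read as background, at 0.480 tags per kilobase in knockout library 13 and 1.50 in knockout library 16, against 0.159 to 0.396 in the controls. Across genes, Spearman's rho between level and length of region was 0.726 in library 13 and 0.941 in library 16, against 0.680 to 0.760 in the controls. In the fit of values as deposited the median gene was 0.97 higher in knockout libraries on the log2 scale. Log2 changes below are therefore from values scaled with TMM factors, a normalization that sets the bulk of genes equal (median 0.04 afterwards), and are knockout minus control on log2(scaled value + 1). Where named, the background per kilobase was also subtracted before scaling. All 11 pituitary progenitor markers, among them Sox2, Lhx3 and Pitx1, were detected in every library, and so were Nkx2-1 of the hypothalamus, Col3a1 of mesenchyme and Pecam1 of endothelium, although the label names epithelial pituitary cells.

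The targeted gene was measured first. Itgb1 (mm9 chromosome 8, 131210354 to 131257479) was at 446.36 and 186.36 tags in libraries 13 and 16, against 272.73, 426.36 and 430.91 in the controls. Scaled, it was at 340 and 106 in libraries 13 and 16, against 449, 428 and 602 in the controls, below every control in both. Its log2 change was -1.35 ± 0.49 (SE), with an adjusted p of 0.767 (limma, Benjamini-Hochberg). Without library 13 it was called lower in limma (-2.19, adjusted p = 0.0132, in a fit that called 11.6% of all genes lower). Without library 16 the change was -0.52, with an adjusted p of 1. The value covers the gene's whole listed span, so it does not isolate the deleted part.

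No Notch or Hes gene passed the test between genotypes. Limma called 0 of 10, as it called 0 of 19313 genes (0% of genes, in either direction), and none of the 10 had an unadjusted p under 0.05, where 386 genes did (1.06% of genes higher and 0.937% lower). The quasi-likelihood test of edgeR called 0 genes with 478 at an unadjusted p under 0.05, and DESeq2 called 25 genes, all lower, or 2.59% of the 965 genes to which it gave an adjusted p. Of the 10 genes Notch2 alone had one (0.694), so the other 9 could not be called by DESeq2. The median log2 change of the 10 genes was -0.56, beside 0.04 over all genes tested, with 3 positive and 7 negative. It was -0.35 with background subtracted and scaled, and without library 16 it was 0.02. In bulk RNA, fewer cells of a type and less RNA per cell cannot be told apart.

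**Figure D1:**
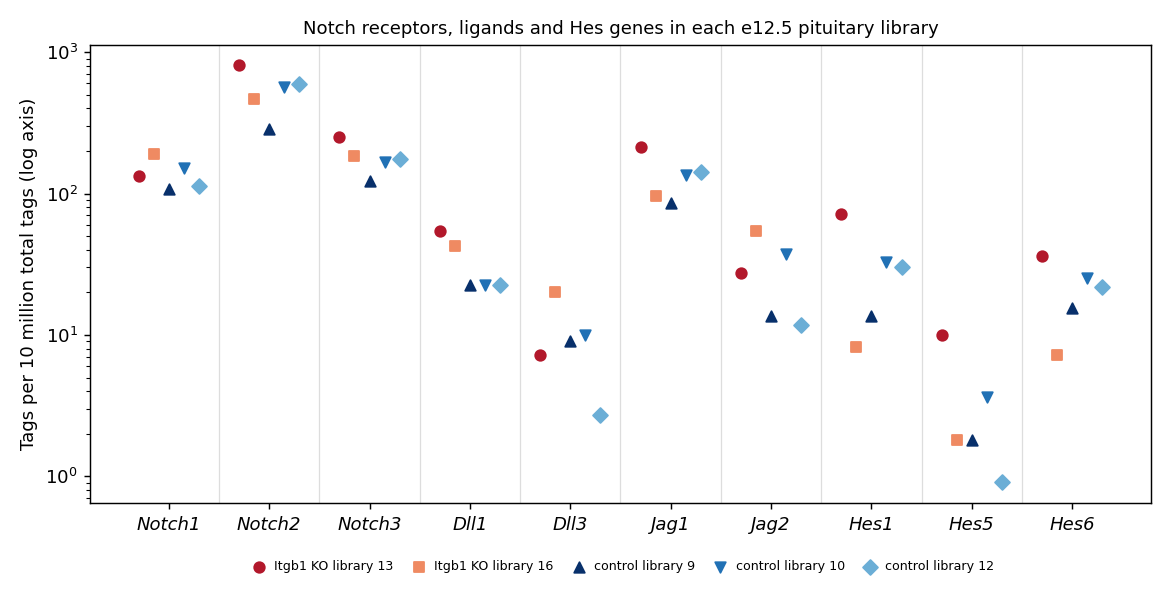
Tags per 10000000 total tags (log axis) of the 10 genes in each library, as deposited, with each point 1 library. Hes1, Hes5 and Hes6 were highest in knockout library 13, and Hes1 and Hes6 lowest in knockout library 16.

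The Hes genes differed most between the knockout libraries. Their regions were the shortest of the 10, at 0.649 to 1.64 kb, with Dll3 next at 7.43 kb. In library 16 level followed region length most closely (rho 0.941). The part of region length in these differences was not tested. Hes1 (mm9 chromosome 16, 30066243 to 30067882), the repressor that maintains progenitors, was at 71.82 tags in library 13 and 8.18 in library 16, against 13.64, 32.73 and 30 in the controls. Library 13 lay above every control and library 16 below every control, so the group of 2 spanned the group of 3. These levels rest on 79 and 9 reads in libraries 13 and 16, with exact Poisson intervals at 95% of 56.9 to 89.5 and 3.74 to 15.5 tags (counting error only). Scaled, the order held, with 54.8 and 4.65 in libraries 13 and 16, against 22.5, 32.9 and 41.9 in the controls. The log2 difference from the control mean was 0.78 in library 13 and -2.52 in library 16. After background subtraction the differences were 0.80 and -2.04. The fitted change was -0.87 ± 0.81 (SE), with an adjusted p of 0.768 in limma, and it was -0.16 in edgeR and -0.14 in DESeq2 on the same libraries.

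Hes5 (mm9 chromosome 4, 154335832 to 154336480), a target that in neural tissue follows Notch activity closely, was near the limit of detection. It was at 10 tags in library 13 and 1.82 in library 16, against 1.82, 3.64 and 0.91 in the controls. These are 11 and 2 reads in the knockout libraries and 2, 4 and 1 in the controls, and the Poisson interval of library 13 (4.99 to 17.9 tags) overlapped that of control library 10 (0.991 to 9.31 tags). Library 13 was the highest of the 5, and library 16 equalled control library 9. The fitted log2 change was 0.27 ± 0.82 (SE), with an adjusted p of 0.91 in limma.

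Hes6 (mm9 chromosome 1, 93308460 to 93309399), which promotes differentiation in other tissues, was at 36.36 tags in library 13 and 7.27 in library 16, against 15.45, 25.45 and 21.82 in the controls. After scaling library 13 lay within the controls, at 27.7 against 25.4, 25.6 and 30.5 in the controls, and library 16 lay far below them at 4.13. Its log2 change of -1.21 ± 0.68 (SE) was the lowest of the 10 genes, with an adjusted p of 0.767 in limma. Without library 16 the change was 0.03.

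The Notch receptors had higher tag totals than the Hes genes in every library. Notch1 (mm9 chromosome 2, 26313822 to 26358942) was at 133.64 and 189.09 tags in libraries 13 and 16, against 107.27, 152.73 and 112.73 in the controls. Scaled, it was at 102 and 107 in libraries 13 and 16, against 177, 153 and 157 in the controls. It was the only one of the 10 genes with both knockout libraries below every control on that scale, where 6.8% of all genes tested had the same order, and none of the 10 had both above every control (8.5% of genes). Its log2 change was -0.63 ± 0.35 (SE), with an unadjusted p of 0.0977 and an adjusted p of 0.767 in limma. With background subtracted, library 16 rejoined the controls, at 121 against 148, 124 and 112 in the controls, and library 13 stayed below them at 74.5. None of the 10 then had both knockout libraries below every control (7.55% of genes).

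Notch2 (mm9 chromosome 3, 97818261 to 97954290) was at 804.55 and 464.55 tags in libraries 13 and 16, against 288.18, 567.27 and 593.64 in the controls. Notch2 had the largest total of the 10 genes in every library, over the longest region. Scaled, it was at 613 in library 13, inside the control range of 475 to 829, and at 264 in library 16, below it. The fitted log2 change was -0.59 ± 0.45 (SE), with an adjusted p of 0.767 in limma.

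Notch3 (mm9 chromosome 17, 32258238 to 32303397), known as a receptor of pericytes and vascular smooth muscle as well as of progenitors, was at 250 and 184.55 tags in libraries 13 and 16, against 123.64, 167.27 and 174.55 in the controls. Scaled, library 13 was within the controls and library 16 below them, at 191 and 105 in the knockouts, against 204, 168 and 244 in the controls. Notch3 had a log2 change of -0.52 ± 0.39 (SE), with an adjusted p of 0.767 in limma, and was at -0.94 without library 13 and -0.089 without library 16. The 11 listed mural cell markers, of which none was at 0 in every library, summed to 211 and 403 in libraries 13 and 16, against 258 to 305 in the controls, with background subtracted and scaled. In library 16, Myh11 (96.1 kb) gave 99.5 of that sum, against 13.7 to 29.3 in the controls. On scaled values library 16 was above every control in 5 of the 11 (44% of genes) and below in 3 (39.5%). The part of these markers in the Notch3 level was not tested.

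**Figure D2:**
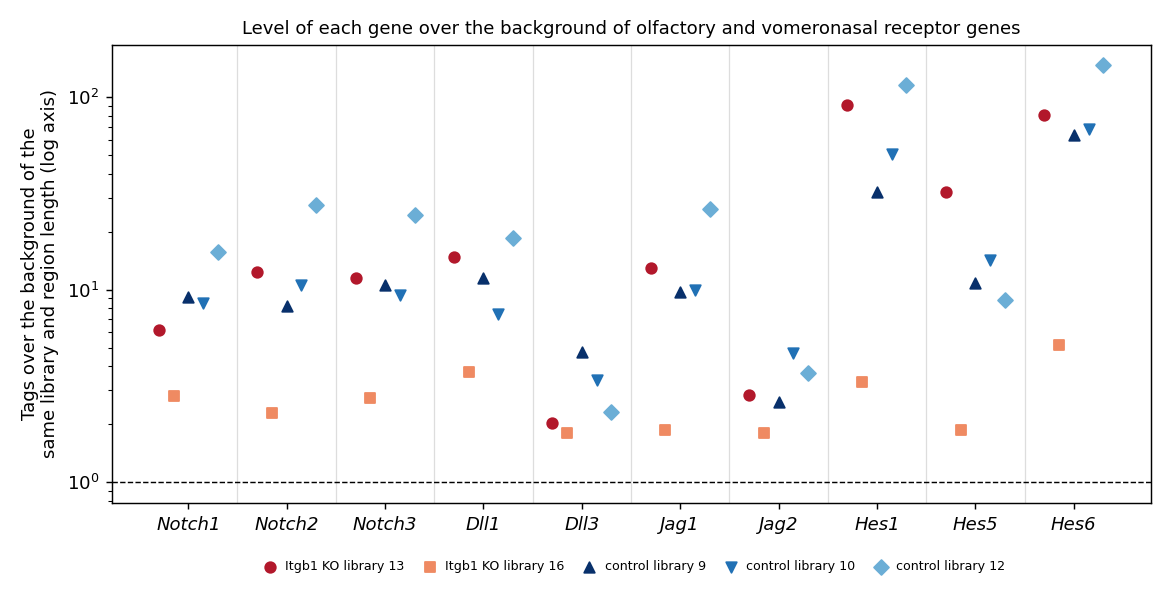
Tags of each gene divided by the tags that the background per kilobase of the same library would give over its region (log axis), with each point 1 library and the dashed line at 1. Library 16 was the lowest point for all 10 genes, from 1.80 for Dll3 to 5.16 for Hes6. Its background, the divisor, was the highest, at 1.50 tags per kilobase against 0.159 to 0.480 in the other libraries. Notch1, Jag2 and Dll3 had their highest tags as deposited in library 16. The share of all genes with library 16 lowest by this ratio was not computed.

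Among the ligands, Jag1 carried the most tags. Jag1 (mm9 chromosome 2, 136907587 to 136941856), the ligand mutated in Alagille syndrome in humans, was at 213.64 and 96.36 tags in libraries 13 and 16, against 86.36, 135.45 and 142.73 in the controls. Scaled, it was at 163 in library 13, inside the control range of 136 to 199, and at 54.7 in library 16, below it. Jag1 had a log2 change of -0.72 ± 0.48 (SE), with an adjusted p of 0.767 in limma. Background accounted for 53.3% of its tags in library 16 and for 3.82% to 10.3% in the controls, and the library 16 difference from the control mean was -1.50 before and -1.46 after subtraction.

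Dll1 (mm9 chromosome 17, 15504718 to 15512387), the main Delta ligand of many progenitor tissues, was at 54.55 and 42.73 tags in libraries 13 and 16, against 22.73 in each of the 3 controls. Both knockout libraries were above the controls as deposited. After scaling the groups overlapped, at 41.6 and 24.3 in libraries 13 and 16, against 37.4, 22.8 and 31.7 in the controls, and the log2 change was 0.08 ± 0.46 (SE) with an adjusted p of 0.955 in limma.

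Jag2 and Dll3 were the weakest ligands per kilobase in the controls. Jag2 (mm9 chromosome 12, 114147201 to 114167306) was at 27.27 and 54.55 tags in libraries 13 and 16, against 13.64, 37.27 and 11.82 in the controls, and its log2 change was 0.07 ± 0.50 (SE), with an adjusted p of 0.962 in limma. Dll3 (mm9 chromosome 7, 29078974 to 29086404), a divergent Delta protein that is known to inhibit Notch within the cell that makes it, was at 7.27 and 20 tags in libraries 13 and 16, against 9.09, 10 and 2.73 in the controls. Dll3 had a log2 change of -0.07 ± 0.68 (SE), with an adjusted p of 0.971 in limma. For both genes library 16 was the highest as deposited, and 55.2% of the Jag2 tags and 55.7% of the Dll3 tags there equalled the background. With background subtracted and scaled, library 16 was inside the control range for both.

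Dll3 was also the only one of the 10 genes listed as changed in the authors' deposited table, which holds 5.1% of the gene symbols in the table of all genes. The authors' deposited table gives Dll3 a value of 16 for the knockout and 3 for the control, in a unit it does not name, with a log2 fold change of 2.42 and a p-value of 0.000316. The authors' deposited table also lists Hes3 (log2 fold change 1.58) and Heyl (-0.63), related repressors, and Dlk1 (2.32), Adam17 (1.1), Ncor1 (-0.37) and Spen (-1.03) of the other pathway lists. In the table of all genes Hes3 was at 8.18 and 10 tags in libraries 13 and 16, against 8.18, 8.18 and 2.73 in the controls. Across the 1024 genes found in both tables, the control value of the authors' deposited table had a Spearman rho of 0.068 with the control mean of the table of all genes. By library means as deposited, without scaling, 578 of the 1024 had the same direction as in the authors' deposited table. No source used here says how the values of that table were made.

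**Figure D3:**
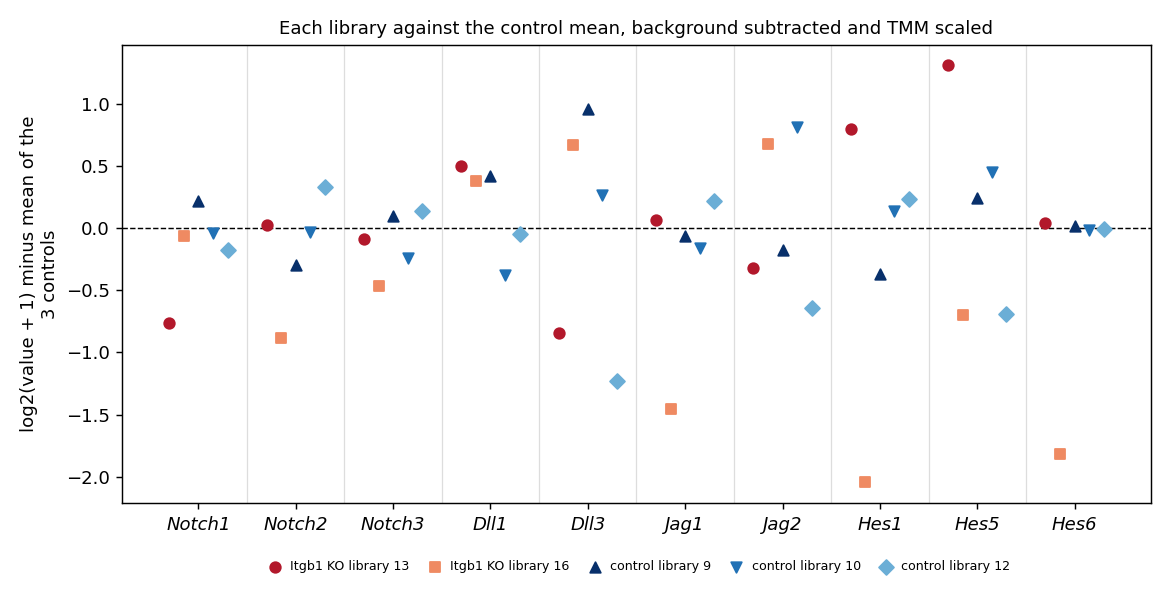
Difference of each library from the control mean on log2(value + 1), with background subtracted and TMM scaling; each point is 1 library and the dashed line marks the control mean. Hes1 had the widest gap between knockout libraries, at 0.80 in library 13 and -2.04 in library 16.

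Per kilobase of region, with background subtracted and scaled, Hes6 was the highest of the 10 genes in the controls, at 24.7 ± 0.320 tags per kilobase (SD, n = 3), and was at 25.4 and 6.23 in libraries 13 and 16. Hes1 followed at 16.6 ± 3.60 in the controls, with 28.8 and 3.48 in libraries 13 and 16. The control ranges of Hes6 and Hes1 did not overlap. Next came Jag1 (3.67 ± 0.519), Notch3 (3.60 ± 0.495), Notch2 (3.60 ± 0.804), Hes5 (3.35 ± 1.80), Dll1 (3.17 ± 0.930) and Notch1 (2.83 ± 0.405) tags per kilobase in the controls, and the ranges of neighbours among these overlapped. Dll3 (0.861 ± 0.635) and Jag2 (0.814 ± 0.463) were lowest in the controls and overlapped each other. The regions span introns, so these are levels over a gene's whole listed span and not of its mature transcript. For Dll3, Hes3, Ncor1 and Spen the authors' deposited table gives a region 400 bases longer at each end, and for Adam17 400 and 441 bases longer. For Heyl and Dlk1 it gives a region 800 bases longer at the start and 0 at the end. A listed span may therefore not be the whole gene. Such a margin is large beside the Hes5 region of 0.649 kb.

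The knockout libraries were on opposite sides of the controls for some of the 10 genes. On scaled values, library 13 lay above every control in 3 of the 10 genes (Dll1, Hes1 and Hes5), where 20.9% of all genes did, and below every control in Notch1 (16.3%). Library 16 lay below every control in 7 of the 10 (the 3 receptors, Jag1 and the 3 Hes genes), where 39.5% of all genes did, and above every control in none (44%). With background subtracted, Hes6 joined the first set (23.8% of genes) and Notch1 left the second (39.3%). Both held at once for Hes1 and Hes5 on scaled values, 2 of 10 against 9.75% of all genes, and for Hes1, Hes5 and Hes6 with background subtracted, 3 of 10 against 11.8%. The place of Hes5 in library 16 rests on 2 reads, against 2, 4 and 1 in the controls, and came only with scaling. Scaled, it was at 1.03 there and 1.27 in control library 12, and with background subtracted as well at 0.846 and 0.857. The place of Hes6 in library 13 also had a narrow margin, at 23.9 against 23.0 to 23.5 in the controls, with background subtracted and scaled. In the fit without library 13, which leaves 1 knockout library that is assumed to vary like the controls, limma called Hes6, Hes1 and Jag1 lower, with log2 changes of -2.44, -2.51 and -1.50 and adjusted p of 0.0229, 0.0294 and 0.0304. In that fit 11.6% of all genes were called lower. The edgeR test without library 13 called those 3 genes, Notch2 and Notch3 lower, with 22.1% of all genes. With background subtracted as well, Jag1 kept its call (adjusted p = 0.0332 in limma, with 11.8% of genes called lower) and Hes6 and Hes1 had log2 changes of -1.80 and -2.03 with adjusted p of 0.0501 and 0.0548. Without library 16 limma called none of the 10.

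**Figure D4:**
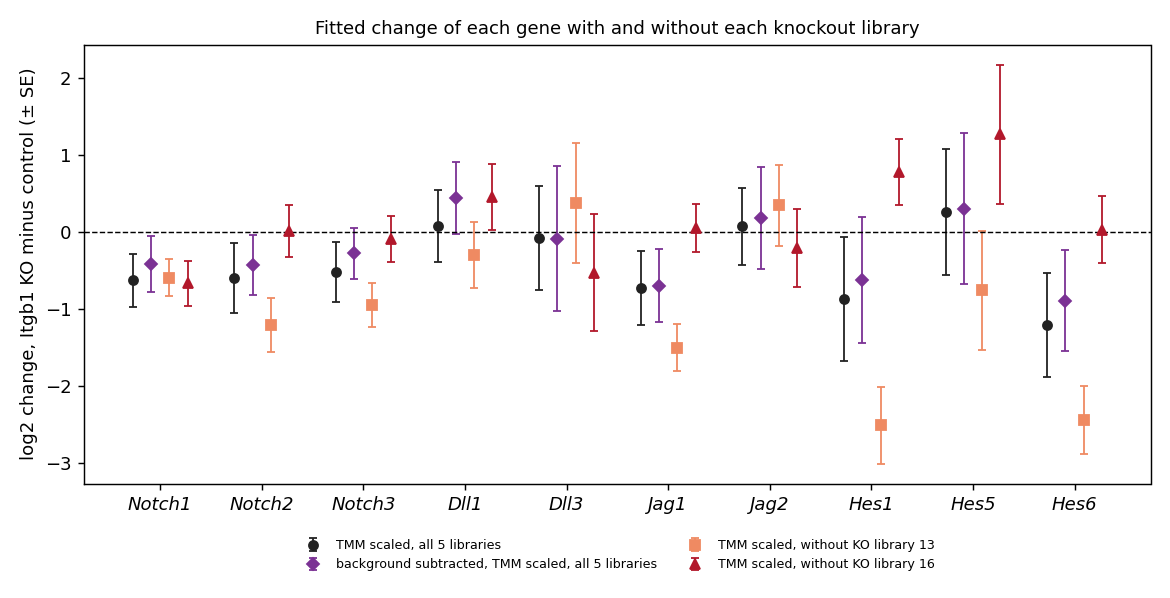
Fitted log2 change of each gene, knockout minus control, with its standard error, in the fit of all 5 libraries, the same with background subtracted, and the fits without either knockout library. Hes1 was at -2.51 without library 13 and 0.78 without library 16.

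The other genes of the pathway were read from lists by role, and limma called none of their members. Of 14 genes for glycosylation and cleavage of the receptors, 2 had positive and 12 negative log2 changes, with a median of -0.31. Psenen and Aph1a, subunits of the gamma-secretase that cuts Notch in the membrane, were highest per kilobase in this list. Psenen changed by -0.73 ± 0.68 and Aph1a by -0.72 ± 0.59 (SE) on the log2 scale, with adjusted p of 0.768 and 0.767 in limma. Lfng, which adds sugars that tune the response of Notch to its ligands, was chosen after its values were seen. It was at 41.82 and 39.09 tags in libraries 13 and 16, against 16.36, 7.27 and 14.55 in the controls. Scaled, the groups overlapped, at 31.9 and 22.2 in libraries 13 and 16, against 26.9, 7.30 and 20.3 in the controls, and with background subtracted as well both knockout libraries were above every control, an order found in 8.7% of all genes. Lfng had a log2 change of 0.70 ± 0.59 (SE), with an adjusted p of 0.767 in limma.

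Of 14 listed regulators of ligand and receptor uptake, 3 had positive and 11 negative log2 changes (median -0.35). Dlk1, a Delta-like protein of progenitors and endocrine cells that lacks the usual Notch-binding region, was the strongest per kilobase. It was at 1063.64 and 240.91 tags in libraries 13 and 16, against 490.91, 561.82 and 680 in the controls, with a log2 change of -1.18 ± 0.63 (SE) and an adjusted p of 0.767 in limma. The authors' deposited table gives Dlk1 the opposite direction to this fit of scaled values. As deposited, library 13 was above and library 16 below every control. Nedd4, a ubiquitin ligase, changed by -1.03 ± 0.61 (SE), with an adjusted p of 0.767 in limma. Both were lowest in library 16 after scaling.

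Among 14 nuclear partners of Notch, 1 had a positive and 13 a negative log2 change, with a median of -0.41. Rbpj, the DNA-binding partner itself, was at 411.82 and 265.45 tags in libraries 13 and 16, against 162.73, 298.18 and 259.09 in the controls, and changed by -0.50 ± 0.41 (SE), with an adjusted p of 0.767 in limma. The corepressor Tle1, with which Hes proteins act, changed by -0.53 ± 0.55 and the coactivator Ep300 by -0.87 ± 0.48 (SE), with adjusted p of 0.773 and 0.767 in limma. On scaled values library 16 was below every control in 12 of the 14, including Rbpj, where 39.5% of all genes were.

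Other receptors, ligands and targets numbered 11, with 4 positive and 7 negative log2 changes (median -0.29). The target Hey1, a repressor related to Hes1, was at 243.64 and 30 tags in libraries 13 and 16, against 69.09, 92.73 and 80.91 in the controls. Library 13 was above and library 16 below every control, the order seen for Hes1, and its log2 change was -0.88 ± 0.76 (SE), with an adjusted p of 0.767 in limma. Id1 changed by -0.84 ± 0.62 (SE), with an adjusted p of 0.767 in limma. Notch4 and Dll4, the receptor and ligand of endothelium, were highest in library 16 as deposited, at 69.09 and 14.55 tags there. They were at 24.55 and 3.64 in library 13, and at 12.73 to 20.91 and 0 to 4.55 in the controls. On scaled values library 16 was above every control for both, where 44% of all genes were. The 12 endothelial markers summed to 388 and 648 in libraries 13 and 16, against 404 to 438 in the controls, with background subtracted and scaled. In library 16, Flt1 (163 kb) and Erg (169 kb) gave 184 and 134 of that sum, against 33.3 to 92.2 and 26.4 to 48.9 in the controls. On scaled values library 16 was above every control in 6 of the 12 (44% of genes) and below in 4 (39.5%). The part of these markers, and of region length, was not tested.

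Of the 9 proneural factors tested, which include genes that Hes proteins repress, 5 had positive and 4 negative log2 changes, with a median of 0.32 that was -0.50 over the 5 that passed the filter after background subtraction. Insm1 had a log2 change of -0.99 ± 0.51 (SE), with an adjusted p of 0.767 in limma. This gene, a factor of endocrine and neural differentiation, was at 19.09 and 14.55 tags in libraries 13 and 16, against 18.18, 18.18 and 15.45 in the controls. After scaling both knockout libraries were below every control for Insm1 and Neurog3, an order found in 6.8% of all genes. They were above every control for Neurod2 and Neurod4, an order found in 8.5%.

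**Figure D5:**
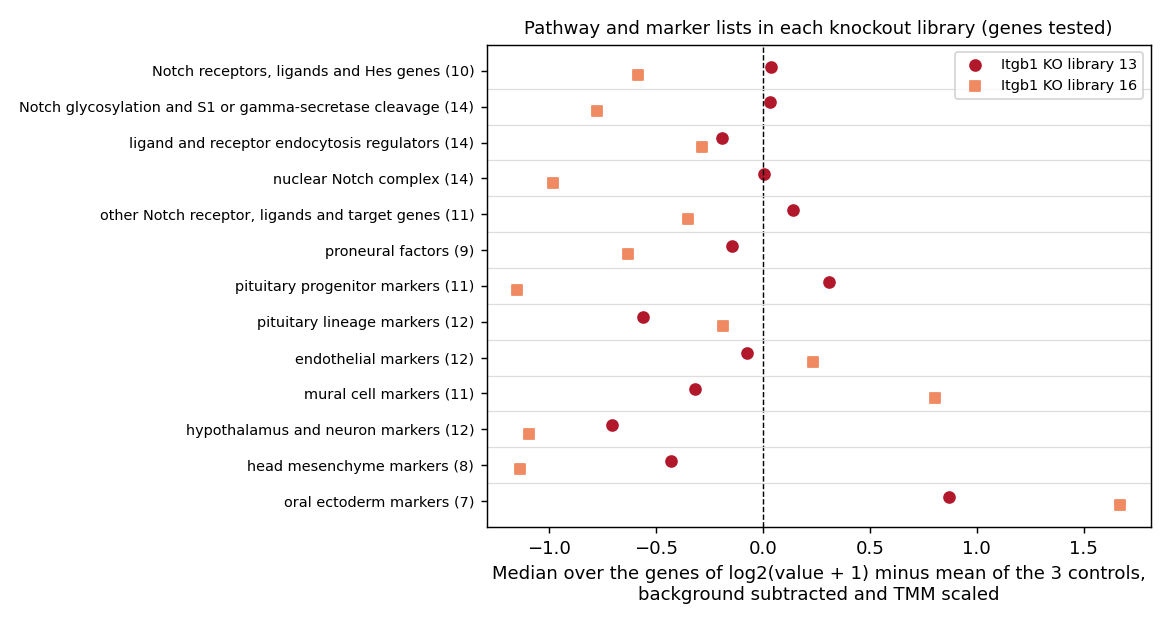
Median over each list of the log2(value + 1) difference from the control mean in each knockout library, with background subtracted and TMM scaling; the number of genes tested is in brackets. The 10 Notch and Hes genes were at 0.04 in library 13 and -0.58 in library 16, and pituitary progenitor markers at 0.31 and -1.15.

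Some markers of pituitary progenitors had the order of Hes1 across libraries. On scaled values 5 of the 11 lay above every control in library 13 and below every control in library 16, where 9.75% of all genes did. Of the 11 progenitor markers, 6, among them Lhx3, Hesx1, Pitx1 and Six6, lay above every control in library 13 and below every control in library 16, with background subtracted and scaled, where 11.8% of all genes did. On that scale Sox2, Sox3, Six3 and Lhx4 lay within the controls in library 13. Sox9 lay below every control in both libraries (7.55% of genes), at 11.2 and 10.1 against 27.4 to 47.3 in the controls. The 11 markers summed to 864 and 376 in libraries 13 and 16, against 611 to 751 in the controls. No marker of this list was at 0 in every library. Their part in the Hes levels was not tested. In library 16, 10 of the 11 were below every control on scaled values, where 39.5% of all genes were. Lhx4, the longest region of this list at 39.5 kb, was above every control (44% of genes). The part of region length in these orders was not tested. Hypothalamic and neuronal markers (12) summed to 729 and 413 in libraries 13 and 16, against 1160 to 1285 in the controls, and head mesenchyme markers (8) to 798 and 462, against 957.7 to 1083 in the controls. The 13 listed lineage markers summed to 157 and 506 in libraries 13 and 16, against 457 to 611 in the controls, also with background subtracted and scaled. On scaled values without subtraction they summed to 221 and 386, against 624 to 715 in the controls. There, 5 of the 12 tested were below every control in both knockout libraries (6.8% of genes) and 1 above (8.5%). The 7 oral ectoderm markers summed to 328 and 319.6, against 228 to 249 in the controls, with background subtracted and scaled. For these too, the part in the Notch and Hes levels was not tested.

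The genes whose profile over the 5 libraries was nearest to that of Hes1 were Sod1, Trim59, Peg3as, Six6 and Rps9, out of 6996 candidates. Likeness was the root mean square distance between profiles of log2(scaled value + 1) centred on each gene's mean, and it ran from 0.15 to 0.21. Six6, a homeodomain factor of the pituitary pouch, was at 282.73 and 54.55 tags in libraries 13 and 16, against 71.82, 153.64 and 119.09 in the controls. Sod1, a superoxide dismutase, was at 172.73 and 26.36 tags in libraries 13 and 16, against 41.82, 98.18 and 71.82 in the controls. Every region is listed on 1 strand, so Peg3as cannot be told apart from genes it overlaps.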

How the data were processed

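RNA came from 5 e12.5 pituitaries, rRNA-depleted and made into strand-specific libraries, per the labels' protocols. Bowtie2, HOMER and edgeR are the tools, and mm9 the build, in the submitters' processing notes. In the table of all genes the deposited signal is normalized to 10000000 total tags per library, per the file headers. Taking 11000000 total tags per library made 100% of values whole read numbers, to within 0.01 reads, and count tests used these recovered reads. The edgeR test called 0 genes and DESeq2 called 25 of the 965 genes that it gave an adjusted p. Intervals cover counting error only. All regions are given as plus strand, so overlapping and antisense genes cannot be separated. Chi-square per degree of freedom was 9.10 or more between control libraries. The authors' deposited table of changed genes gives a log2 fold change, 2 fold columns (each a ratio), a p-value and a score per genotype without a unit, per the file headers.

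The longest region per symbol was kept. Values were scaled with TMM factors (edgeR 4.0.16) and tested with limma 3.58.1 (trend, R 4.3.3) on log2(value + 1), over 19313 genes with a mean of at least 1, with Benjamini-Hochberg adjustment and a threshold of 0.05. All 5 libraries entered, without covariates. Background was the tags per kilobase of 408 autosomal olfactory and vomeronasal receptor genes, times region length, subtracted with a floor of 0. Alternatives were the scaling, background, pseudocount, filter, edgeR and DESeq2 1.42.0 on recovered reads, and leaving out each library. The steps were tested on simulated data. Limma there recovered 58% of genes raised 2-fold and 94% of genes raised 4-fold. It recovered 28% of genes lowered to 0.5 and 78.3% of genes lowered to 0.25 of their level. The simulated spread was fixed and not taken from these libraries. Named genes were the 10 genes, Itgb1, the 2 genes of each other pathway list with the highest level per kilobase unless members were called, and the 5 genes at a mean of at least 50 nearest to Hes1; Lfng, Rbpj, Notch4, Dll4, Hes3, Heyl, Adam17, Ncor1 and Spen were named after their values were seen. Some genes that these rules name are not reported here. Members and lists were chosen with earlier results of these data known. Of the lists, Mib1, Dner, Kdm5a, Lhb and Abcc9 were not analysed here. The labels call the samples separate biological replicates of littermate embryos.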

Additional observations from a re-analysis of the deposited data

How the results depend on the processing

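No paired analysis was made, because the labels do not give the litter of each embryo. Genes called numbered 1 with background subtracted and no scaling and 25 in DESeq2, and 0 to 2426 when 1 library was left out, highest without library 13 and 3 without library 16. The median log2 change of the 10 genes was 0.45 without scaling, 0.14 with background subtracted and no scaling, -0.35 with background subtracted and scaled, -0.32 in edgeR and -0.30 in DESeq2, and ran from -0.85 (without library 13) to 0.024 (without library 16). Without scaling the sign turned for Notch1 (0.37), Notch2 (0.41), Notch3 (0.48), Dll3 (0.82), Jag1 (0.27) and Hes1 (0.058), and with background subtracted and no scaling for Notch1 (0.073), Notch2 (0.063), Notch3 (0.21) and Dll3 (0.30). On all 5 libraries Hes1, Hes5 and Hes6 were at -0.16, 0.61 and -0.80 in edgeR and -0.14, 0.68 and -0.79 in DESeq2. Leaving out 1 library gave ranges that cross 0 for Notch2 (-1.20 to 0.014), Dll1 (-0.30 to 0.45), Dll3 (-0.57 to 0.38), Jag1 (-1.50 to 0.054), Jag2 (-0.20 to 0.35), Hes1 (-2.51 to 0.78), Hes5 (-0.76 to 1.27) and Hes6 (-2.44 to 0.033). Notch3 ran from -0.94 to -0.089. Among the controls, leaving out library 9 turned Dll3 and Jag2, library 10 Dll1 and Dll3, and library 12 Jag2 and Hes5.

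Each knockout library in turn was also left out under 2 further settings chosen after seeing the data. With background subtracted and scaled, 2877 genes were called without library 13, with Dll3 at 0.65 and Hes5 at -0.67. Without library 16 the median was 0.035, with Notch2 at 0.029, Jag1 at 0.069, Jag2 at -0.32, Hes1 at 0.80 and Hes6 at 0.042. In edgeR, 8047 genes were called without library 13, with a median of -1.11, Dll1 at -0.32, Dll3 at 0.25 and Hes5 at -1.32. Without library 16, edgeR called 3, with a median of -0.0026, Jag1 at 0.030, Jag2 at -0.34, Hes1 at 0.74 and Hes6 at 0.026. The cause of these differences was not tested. A fit without 1 knockout library assumes that the other varies like the controls. Hes5 could not be tested at a mean of at least 5, and its 1 to 11 reads per library limit its precision.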
